A study of Sus scrofa with 4 samples.

Results

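The enzymes by which the liver breaks down amino acids and turns their nitrogen into urea were compared between piglets fed with and without added L-carnitine. The 55 genes were listed by their function in the urea cycle and in the degradation, interconversion and synthesis of amino acids, with earlier results of these data known. Of these genes 37 carry a probe set in the array's annotation, out of 6765 annotated genes and 23999 tested probe sets. The other 18 genes (NAGS, GLUD1, GLS2, GPT2, HGD, TDO2, SDSL, HAL, UROC1, MCCC1, HIBADH, PCCB, AASS, PRODH, CBS, GLDC, SHMT2 and AGXT) were not analysed here. Where a gene had several probe sets the one with the highest mean log2 signal was used.

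All 16 animals were male crossbred pigs of the same cross, (German Landrace x Large White) x Pietrain, and weighed 10 ± 1 kg (mean ± SD) at the start. For 21 days 8 pigs had a basal diet poor in carnitine, and the other 8 the same diet with L-carnitine added at 500 mg per kg. Liver was taken under anaesthesia at an age of 7 weeks and 2.5 h after feeding, and each pool combined the total RNA of 4 pigs. Each diet is thus represented by 2 pools on 2 Affymetrix porcine genome arrays, the pigs within a pool cannot be told apart, and the labels number the pools as biological replicates. In a whole-tissue pool, fewer hepatocytes and less RNA per hepatocyte cannot be told apart either.

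The liver is the main site where amino acids beyond the needs of protein synthesis are degraded. Aminotransferases and deaminases move their nitrogen to glutamate, aspartate and ammonia, and the urea cycle, which is most active in periportal hepatocytes, turns it into urea, while glutamine synthetase traps the remaining ammonia in the cells around the central vein. The carbon skeletons enter gluconeogenesis, ketogenesis or the citric acid cycle. Methionine has its own cycle in the liver, in which S-adenosylmethionine donates methyl groups and homocysteine is either remethylated or turned into cysteine. Several degradation steps of the branched-chain amino acids yield acyl-CoA esters whose acyl groups can be transferred to carnitine.

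Values are MAS5 signals, the linear brightness of a probe set after background subtraction and scaling of each array to the same trimmed mean, and levels of different genes are not comparable on this scale. A log2 fold change is the mean log2 signal of the carnitine pools minus that of the control pools. The median signal of the 4 arrays ranged from 109 to 114, and 36 of the 37 genes lay above the median of all probe sets. Hepatocyte markers with a probe set numbered 15, and all of them were bright, with mean signals from 12862 to 45067. Their summed signal was 505612 and 463526 with carnitine against 564572 and 513989 without, with 8 markers lower in both carnitine pools and 0 higher. Of all probe sets 20.4% were lower in both carnitine pools and 19.2% higher, and of those above the median signal 22.0% and 21.9%. Summed signals of stellate cell and fibroblast markers were 4275 and 4124 against 3240 and 10361, and those of cholangiocyte markers 1769 and 1311 against 1240.3 and 7364, so that control pool 2 stood apart in both. Macrophage markers summed to 5051 and 4349 with carnitine against 6099 and 5515 without. The sums of T and NK cell, erythroid and neutrophil markers were also lower in both carnitine pools, and those of B cell and endothelial markers overlapped. For T and NK cells the margin was narrow, with 962 and 821 against 1394 and 976. The neutrophil markers were dim, with mean signals from 20.6 to 54.4 and 0 above the median signal. Perivenous hepatocyte markers summed to 41477 and 38248 against 37448 and 40046. Of the 6 with a probe set 4 were higher in both carnitine pools and 1 was lower, with a median log2 fold change of 0.35. The 3 periportal markers with a probe set summed to 2119 and 3579 against 5835 and 16524. PCK1 is one of them and alone gave 991 and 2490 against 5177 and 15246, so that this sum is not read as a measure of periportal cells. Degraded RNA or short labelling products raise the signal of 3' control probe sets over that of 5' ones, and for GAPDH this ratio was 18.7 and 16.1 with carnitine against 12.5 and 11.6 without. For actin it was 157 and 136 against 91.2 and 86.7. The part of these differences in the results below was not tested.

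No enzyme of amino acid metabolism passed the test after adjustment, and the clearest difference between the diets was the higher signal of BHMT, the betaine-dependent enzyme that remethylates homocysteine, in the carnitine pools. Of the 37 genes 0 passed an adjusted p of 0.05 in limma, against 0.00417% of all probe sets, and the smallest adjusted p was 0.277, that of BHMT. At an unadjusted p under 0.05 there were 4 genes higher in the carnitine pools (BHMT, ARG1, GNMT and GPT), 10.8% of the 37, and 5 lower (ASNS, IVD, TAT, GSTZ1 and MAT1A), 13.5% of them. The corresponding shares were 4.72% and 3.93% of all probe sets, and 6.74% and 5.24% of the probe sets above the median signal, to which all but 1 of the 37 genes belong. As the genes were chosen with earlier results of these data known, these shares and those below are a description only. The analysis of variance named in the study's statistics section, on the same values, gave 2 genes higher and 4 lower before adjustment and 0 after it. These counts depend on single pools: without carnitine pool 2 there was 1 higher and 0 lower, without control pool 1 there were 2 higher, and without carnitine pool 1 there were 2 lower. An exact permutation test of 2 pools against 2 cannot give a two-sided p below 0.333, and no p-value here measures the spread between pigs. Those from limma rest only in part on the spread between the pools of the gene itself, and otherwise on that of all probe sets. For ARG1 the p was 0.0402 from limma and 0.282 from the analysis of variance, and for GPT it was 0.0417 and 0.00688.
In 12 genes both carnitine pools lay above both control pools, which is 32.4% of the 37 against 19.2% of all probe sets and 21.9% of the brighter ones. In 11 genes both lay below, 29.7% against 20.4% and 22.0%. Log2 fold changes ran from -1.24 (ASNS) to 1.45 (BHMT), with 20 above 0, 17 below 0 and a median of 0.023, while the median over all probe sets was -0.018 and over the brighter ones -0.011. A difference of 2-fold or more was found for BHMT and ARG1, which were higher, and for ASNS and SDS, which were lower. These 4 genes are 10.8% of the 37, against 16.0% of all probe sets and 3.65% of the brighter ones. Their number dropped to 1 on leaving out carnitine pool 2 or control pool 1, and it was 7 on leaving out control pool 2. For 23 genes the 95% interval of the log2 fold change included 0 and lay within 1 in both directions, that is, below a 2-fold difference. The share of all probe sets with such an interval was not computed.

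**Figure D1:**
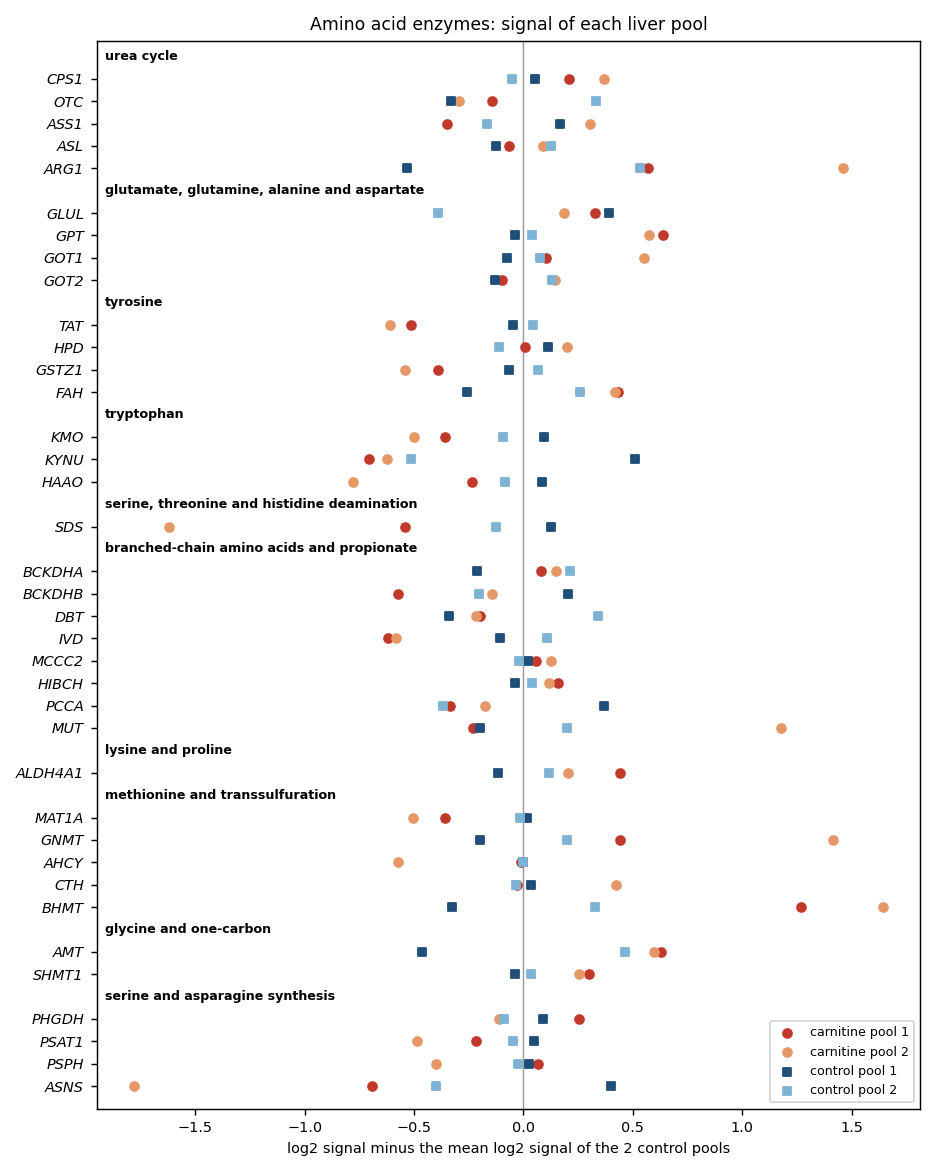
Log2 signal of the 37 amino acid enzymes in each liver pool, relative to the mean log2 signal of the 2 control pools of the same gene (vertical line at 0), ordered by amino acid group; circles are carnitine pools and squares control pools. Both circles lie to the right of both squares for BHMT, GNMT, ARG1 and GPT, and to the left for ASNS, IVD, TAT, GSTZ1 and MAT1A, while ASL, GOT2 and HPD overlap.

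In the urea cycle the signal of ARG1 was higher in the carnitine pools, while of the 4 earlier enzymes that were measured CPS1 was slightly higher and the others overlapped between the diets. ARG1, the arginase that releases urea from arginine, had signals of 3913 and 7264 with carnitine and 1823 and 3816 without. Carnitine pool 2 stood above the others, and the lower carnitine pool exceeded the higher control pool by little (difference of 1.02 in log2 with a standard error of 0.41, unadjusted p = 0.0402 and adjusted p = 0.552 from limma). The log2 fold change of ARG1 was 0.57 without carnitine pool 2 and 0.48 without control pool 1, against 1.55 without control pool 2. CPS1, which makes carbamoyl phosphate from ammonia and so starts the cycle, gave 14910.1 and 16672 against 13392 and 12424. The carnitine pools were above the control pools by a small margin (log2 fold change 0.29, 95% interval -0.16 to 0.74). OTC, which forms citrulline, had signals of 898 and 809 against 789 and 1248, and the pools of the diets overlapped (log2 fold change -0.22, 95% interval -0.84 to 0.40). ASS1, which joins citrulline to aspartate, gave 8859 and 13943 against 12659 and 10065 (log2 fold change -0.022, 95% interval -0.64 to 0.60). Its carnitine pools lay at the lower and the upper end of the 4 values, and its log2 fold change was 0.016 with the arrays centred on their medians and 0.080 after quantile normalization. ASL, which splits argininosuccinate into arginine and fumarate, was the most even gene of the cycle, with 3352 and 3729.9 against 3217 and 3827 (log2 fold change 0.011, 95% interval -0.44 to 0.46). For the 5 enzymes the median log2 fold change was 0.011, and it was 0.30 without carnitine pool 1.

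The enzymes that exchange nitrogen between glutamate and other amino acids had log2 fold changes above 0 in all 4 genes measured, with a median of 0.29. Of the 11999 brighter probe sets 5859 were above 0. GPT, the cytosolic alanine aminotransferase that links alanine to pyruvate, had signals of 412 and 393 with carnitine and 257 and 271 without. The pools of a diet were close to each other and the diets were apart, with 1.52 times the control signal (difference of 0.61 in log2 with a standard error of 0.24, unadjusted p = 0.0417 and adjusted p = 0.554 from limma), and with a pool left out the log2 fold change stayed between 0.57 and 0.64. GOT1, the cytosolic aspartate aminotransferase, gave 2765 and 3771 against 2445 and 2713, and the lower carnitine pool was barely above the higher control pool (log2 fold change 0.33, 95% interval -0.18 to 0.83). GOT2, its mitochondrial counterpart, gave 7412 and 8788 against 7257 and 8696 and overlapped (log2 fold change 0.023, 95% interval -0.45 to 0.49). GLUL, the glutamine synthetase of perivenous hepatocytes, had signals of 20519 and 18598 against 21458 and 12456. Control pool 1 was the highest and control pool 2 the lowest of these values (log2 fold change 0.26, 95% interval -0.40 to 0.92), and the log2 fold change was 0.65 without control pool 1 but -0.14 on leaving out control pool 2. The other probe sets of GLUL gave 0.19 and 0.045.

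Enzymes of tyrosine degradation lay on both sides of 0, with lower signals of the first and the next-to-last step and a higher signal of the last step in the carnitine pools. TAT, the tyrosine aminotransferase that controls entry into the pathway and is induced by glucocorticoids and glucagon, had signals of 3272 and 3059 with carnitine and 4527 and 4824 without. The gap between the diets was several times the gap within a diet (control over carnitine 1.48, difference of -0.56 in log2 with a standard error of 0.18, unadjusted p = 0.0153 and adjusted p = 0.461 from limma), and the log2 fold change with a pool left out stayed between -0.61 and -0.51. A dimmer probe set of TAT gave -0.84, with overlapping pools, and with the mean over both the unadjusted p from limma was 0.0614. HPD, which forms homogentisate, gave 3622 and 4132 against 3892 and 3332 and overlapped (log2 fold change 0.10, 95% interval -0.35 to 0.55). GSTZ1, the maleylacetoacetate isomerase, had 4571 and 4119 against 5726 and 6263. Both carnitine pools were lower (difference of -0.46 in log2 with a standard error of 0.18, unadjusted p = 0.0373 and adjusted p = 0.541 from limma), and so they were on its other probe set, where the log2 fold change was -0.68. FAH, which cleaves fumarylacetoacetate at the end of the pathway, had 4575 and 4525 against 2831 and 4049.9. The carnitine pools were both above the control pools, of which control pool 1 was far lower than pool 2 (log2 fold change 0.43, 95% interval -0.095 to 0.95). Without that pool its log2 fold change was 0.17.

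KMO, KYNU and HAAO, the 3 genes of the 55 for tryptophan degradation that had a probe set, were dimmer in each carnitine pool than in either control pool, an order found in 20.4% of all and 22.0% of the brighter probe sets, and 0 of them had an unadjusted p under 0.05 in limma. The kynurenine hydroxylase, KMO, gave 4683 and 4246 with carnitine and 6411 and 5640.3 without (difference of -0.43 in log2 with a standard error of 0.19, unadjusted p = 0.0517 and adjusted p = 0.581 from limma). KYNU, the kynureninase, gave 857 and 908 against 1992 and 979. Control pool 1 was far above the other 3 values (difference of -0.66 in log2 with a standard error of 0.33, unadjusted p = 0.0836 and adjusted p = 0.631 from limma), and without it the log2 fold change of KYNU was -0.15. HAAO, which opens the ring of hydroxyanthranilate on the way to NAD, gave 8264 and 5669.6 against 10306 and 9172, with carnitine pool 2 the lowest (difference of -0.51 in log2 with a standard error of 0.23, unadjusted p = 0.0646 and adjusted p = 0.604 from limma). Without carnitine pool 2 its log2 fold change was -0.23. The second probe sets of KYNU and HAAO had log2 fold changes of -0.22 and -0.35, and on both the pools of the diets overlapped. The median of the 3 genes was -0.51, and it was -0.36 without carnitine pool 2 and -0.34 without control pool 1. KYAT1, a kynurenine aminotransferase of the list of other amino acid enzymes, gave 391 and 653 against 509.9 and 364 and overlapped (log2 fold change 0.23, 95% interval -0.53 to 0.99).
SDS, the serine dehydratase that makes pyruvate from serine, was the 1 enzyme below the median signal. Its signals were 19.9 and 9.40 with carnitine and 31.5 and 26.5 without, around the 25th percentile of all signals, which lay between 24.6 and 27.2. The carnitine pools were below the control pools, but they differed from each other by more than 1 on the log2 scale (log2 fold change -1.08, 95% interval -2.81 to 0.65). With dim signals raised to that percentile the log2 fold change was -0.16, and with an offset of 64 it was -0.24.

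**Figure D2:**
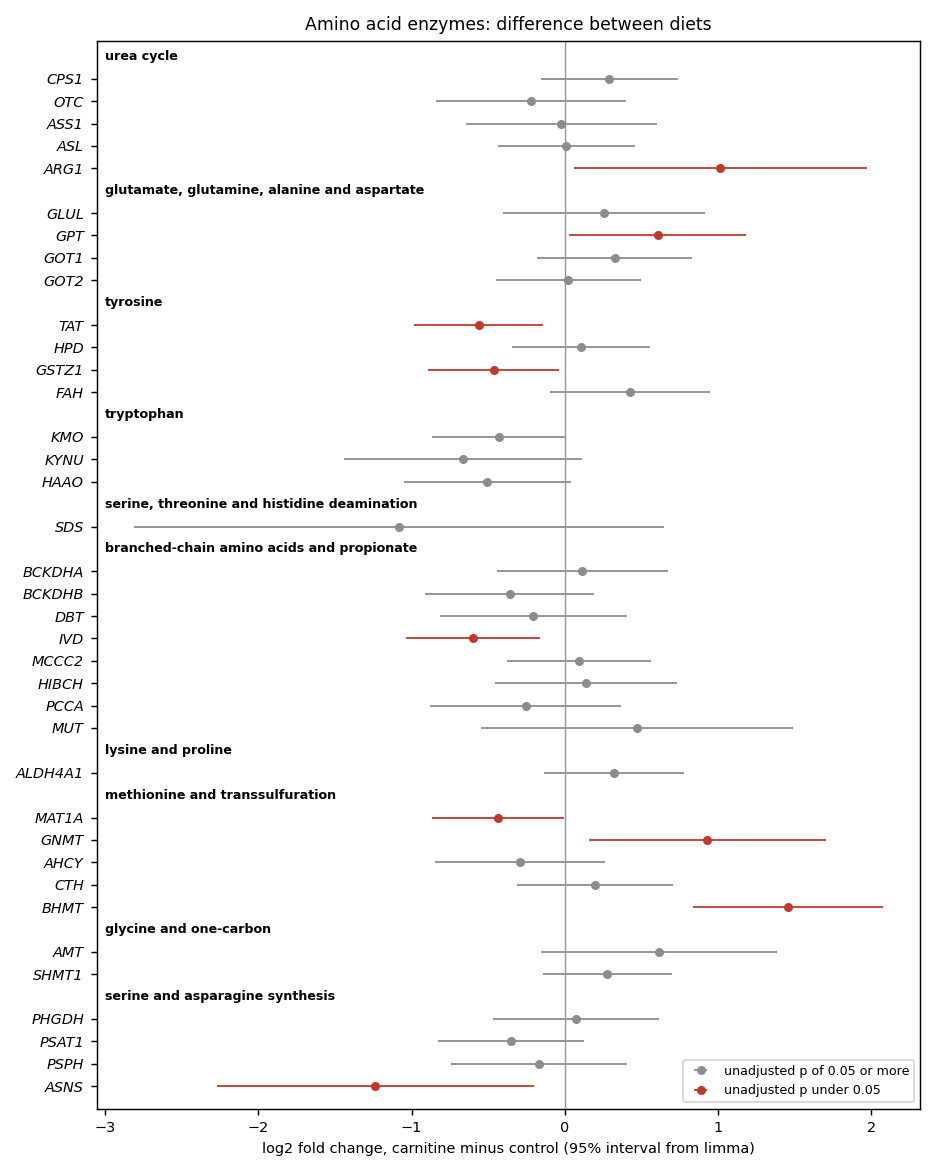
Log2 fold change, carnitine minus control, of the 37 amino acid enzymes by amino acid group, with 95% intervals from limma; red marks the 9 genes with an unadjusted p under 0.05. BHMT lies farthest to the right at 1.45 and ASNS farthest to the left at -1.24, and the widest interval is that of the dim SDS.

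Among 8 enzymes of branched-chain amino acid and propionate metabolism the signal of IVD was lower in the carnitine pools, and the others overlapped between the diets or were apart by a narrow margin. IVD, the isovaleryl-CoA dehydrogenase of leucine degradation, had signals of 1737 and 1781 with carnitine and 2473 and 2873 without. The carnitine pools were nearly equal and both control pools were higher (control over carnitine 1.52, difference of -0.60 in log2 with a standard error of 0.19, unadjusted p = 0.0143 and adjusted p = 0.458 from limma), and without a pool the log2 fold change was between -0.71 and -0.49. IVD has 3 further, dimmer probe sets, with log2 fold changes of -0.36, 0.83 and -0.093, and it was the only one of the 10 genes with several probe sets in which these differed in sign. With the mean over its 4 probe sets the log2 fold change of IVD was -0.056 (unadjusted p = 0.854 from limma). The branched-chain keto acid dehydrogenase, which commits all 3 branched-chain amino acids to oxidation, was measured through BCKDHA (log2 fold change 0.11, 95% interval -0.44 to 0.67), BCKDHB (log2 fold change -0.36, 95% interval -0.91 to 0.19) and DBT (log2 fold change -0.21, 95% interval -0.81 to 0.40). Signals of BCKDHB were 2327 and 3132 against 3988 and 3007, and in all 3 subunits the diets overlapped. MCCC2, a subunit of the biotin-dependent carboxylase that follows IVD, gave 805 and 843 against 785 and 760.3 (log2 fold change 0.092, 95% interval -0.38 to 0.56). HIBCH, a hydrolase of valine degradation, gave 311 and 302 against 272 and 286 (log2 fold change 0.14, 95% interval -0.46 to 0.73). In both genes the carnitine pools were above the control pools by a narrow margin.
PCCA, a subunit of propionyl-CoA carboxylase, had signals of 6277 and 7003 with carnitine and 10209.8 and 6132 without, of which control pool 1 was the highest (log2 fold change -0.26, 95% interval -0.88 to 0.37). MUT, the methylmalonyl-CoA mutase that completes the route of propionate to the citric acid cycle, gave 635 and 1685 against 649 and 856. Carnitine pool 2 stood alone, and the log2 fold change of 0.47 for all pools was -0.23 without it (95% interval with all pools -0.55 to 1.49). The median of the 8 genes was -0.057, and it was -0.21 without carnitine pool 2 and 0.10 without control pool 2. ALDH4A1, which finishes the conversion of proline to glutamate and was the one gene of the 55 for proline and lysine degradation with a probe set, gave 5277 and 4475 against 3591 and 4212. Both carnitine pools were higher (log2 fold change 0.32, 95% interval -0.14 to 0.78), and so they were on its dim probe set, where the log2 fold change was 0.97.

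The methionine cycle held the gene with the largest difference among the 37. BHMT, which transfers a methyl group from betaine to homocysteine, had signals of 5519 and 7163 with carnitine and 1831 and 2873 without, or 6341 ± 1163 (SD, n = 2 pools) against 2352 ± 737 (SD, n = 2 pools). Neither carnitine pool came near the control pools, with 2.74 times the control signal as a ratio of geometric means (difference of 1.45 in log2, standard error 0.26, 95% interval 0.83 to 2.08). Its unadjusted p was 0.000823, which is rank 70 among all 23999 probe sets, and the adjusted p from limma was 0.277. With a pool left out the log2 fold change of BHMT ranged from 1.13 to 1.78, and it was the only one of the 9 genes whose unadjusted p was under 0.05 in each of these 4 fits. GNMT, which uses S-adenosylmethionine to methylate glycine and so disposes of excess methyl groups, had 2391 and 4697 against 1534 and 2018. Both carnitine pools were higher, carnitine pool 2 much more so than pool 1 (difference of 0.93 in log2 with a standard error of 0.33, unadjusted p = 0.0248 and adjusted p = 0.495 from limma). Without carnitine pool 2 the log2 fold change of GNMT was 0.44, and without carnitine pool 1 it was 1.42.
MAT1A, the S-adenosylmethionine synthetase of differentiated hepatocytes, had signals of 8784 and 7937 with carnitine and 11390.5 and 11163 without. The control pools were nearly equal and both carnitine pools were lower (difference of -0.43 in log2 with a standard error of 0.18, unadjusted p = 0.0487 and adjusted p = 0.577 from limma). MAT2A, the synthetase gene of other tissues and of growing cells, belongs to the list of other amino acid enzymes described below and showed the opposite order, with 1963 and 2014 against 888 and 1189 (difference of 0.95 in log2 with a standard error of 0.21, unadjusted p = 0.00284 and adjusted p = 0.358 from limma). AHCY, which releases homocysteine, had 1569.9 and 1063 against 1583 and 1583. Carnitine pool 2 was low, while carnitine pool 1 lay just under the control pools (log2 fold change -0.29, 95% interval -0.85 to 0.26), and without carnitine pool 2 the log2 fold change was -0.012. Its dimmer probe set gave -0.67. CTH, which makes cysteine from cystathionine, gave 11314 and 15446 against 11811 and 11270.3 and overlapped (log2 fold change 0.20, 95% interval -0.31 to 0.71). The 5 genes lay on both sides of 0, and their median of 0.20, the value of CTH, was -0.012 without carnitine pool 2 but 0.42 on leaving out carnitine pool 1.

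**Figure D3:**
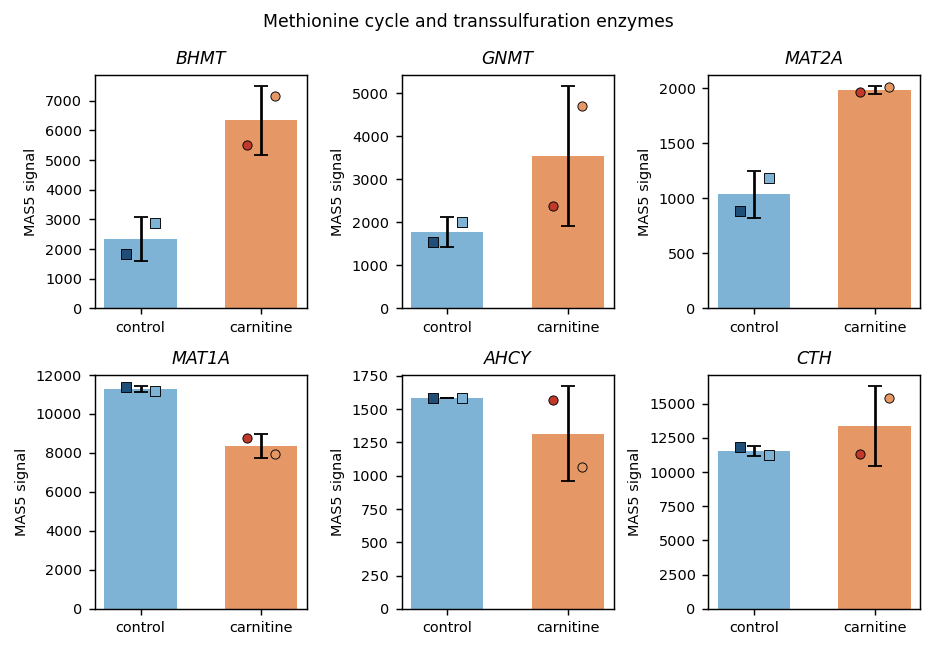
MAS5 signal of 6 enzymes of the methionine cycle and transsulfuration in the control (blue) and carnitine (orange) diets, each panel on its own linear axis from 0; bars are means, error bars the SD of 2 pools, and points the pools, with the darker point for pool 1. BHMT, GNMT and MAT2A are higher and MAT1A lower in both carnitine pools, whereas in AHCY and CTH carnitine pool 1 is close to the control pools.

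AMT and SHMT1, the genes of the 55 for glycine and folate-dependent metabolism that had a probe set, had higher signals in the carnitine pools than in the control pools. This order was found in 19.2% of all and 21.9% of the brighter probe sets, and neither gene had an unadjusted p under 0.05 in limma. The aminomethyltransferase of the glycine cleavage system, AMT, had 637 and 621 with carnitine and 298 and 567 without. Control pool 1 was well below the other 3 values (log2 fold change 0.61, 95% interval -0.16 to 1.38), and without it the log2 fold change was 0.15. The further, dim probe sets of AMT gave 0.25 and 1.64. SHMT1, the cytosolic serine hydroxymethyltransferase, had 9906 and 9586 against 7838 and 8243. The pools of each diet were close together and the diets apart by a small step (log2 fold change 0.28, 95% interval -0.14 to 0.70), and its dimmer probe set gave 0.34. ALDH1L1, a folate enzyme of the list of other amino acid enzymes, had the opposite order, with 9641 and 8262 against 12910.5 and 11263 (log2 fold change -0.43, 95% interval -0.89 to 0.026), and MTHFD1, GCAT and DLD of that list overlapped between the diets.

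In the synthesis of serine and asparagine 3 of 4 genes had lower mean log2 signals in the carnitine pools, as had 6140 of the 11999 brighter probe sets. ASNS, the asparagine synthetase, whose transcription is raised by amino acid shortage, had signals of 259 and 122 with carnitine and 552 and 317 without. All 4 values were spread widely, but both carnitine pools were below both control pools (control over carnitine 2.36, difference of -1.24 in log2 with a standard error of 0.44, unadjusted p = 0.0253 and adjusted p = 0.496 from limma). The log2 fold change of ASNS was -0.69 without carnitine pool 2, -0.84 on leaving out control pool 1 and -1.78 on leaving out carnitine pool 1. PSAT1, the aminotransferase of serine synthesis, gave 20848 and 17324 against 25055 and 23494, with both carnitine pools lower (log2 fold change -0.35, 95% interval -0.83 to 0.13). PHGDH, the first enzyme of that route, gave 831 and 644 against 741 and 653 (log2 fold change 0.072, 95% interval -0.47 to 0.61). PSPH, the last one, gave 659.6 and 477 against 642 and 619 (log2 fold change -0.17, 95% interval -0.74 to 0.40), and in both the diets overlapped. The lower signals of ASNS, PSAT1, MAT1A, TAT, GSTZ1, IVD and the tryptophan enzymes stood beside the lower summed signal of hepatocyte markers given above. In 12 other genes of the 37, BHMT, ARG1, GNMT and CPS1 among them, both carnitine pools were higher. The part of the hepatocyte markers' difference in either was not tested.

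**Figure D4:**
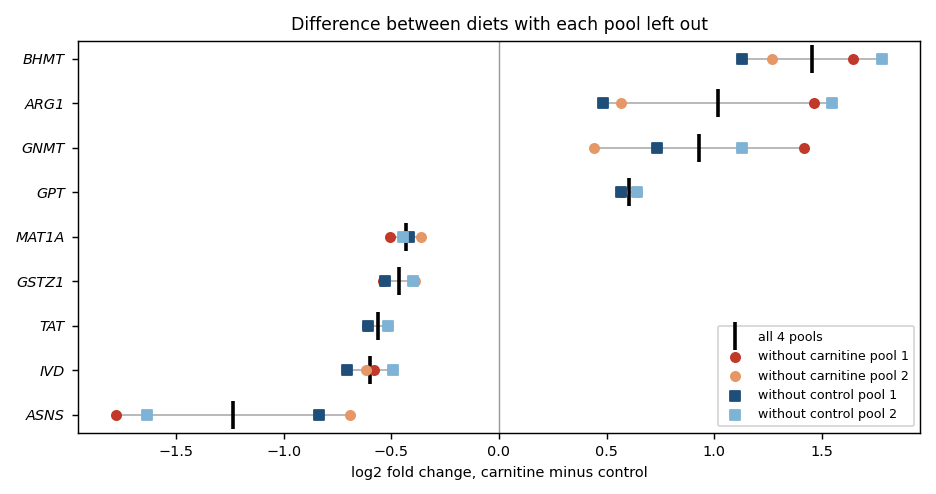
Log2 fold change, carnitine minus control, of the 9 amino acid enzymes with an unadjusted p under 0.05, with all 4 pools (black tick) and with each pool left out in turn (points, coloured by the pool left out). All points of a gene lie on the same side of 0, which is fixed because the pools of the diets do not overlap in these genes. The points are close together for GPT, TAT, GSTZ1, MAT1A and IVD and widely spread for ARG1, GNMT and ASNS.

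With each pool left out in turn, 24 of the 37 genes kept the sign of their log2 fold change and 13 turned. In 23 genes, among them all 9 with an unadjusted p under 0.05, the pools of the diets did not overlap. In such genes the sign cannot turn when a pool is left out, so that keeping it is no further evidence. The difference between the diets was larger than the gap between the pools of either diet in 14 genes. The share of all probe sets with such a difference was not computed, so that this count is a description only. The control pools were farther apart than the carnitine pools in 18 genes and closer in the others.

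Other genes of amino acid metabolism were described from lists of further enzymes, transporters and regulators, each restricted to genes above the median signal. Of 41 further enzymes an unadjusted p under 0.05 was found for 4 with higher and 1 with lower signal, 0 passed the adjusted p in limma, and the median log2 fold change was -0.025. By the same measure 6.74% of all probe sets above the median signal were higher and 5.24% lower, which is the background of this count and of those for the other 3 lists, and counts of 1 or 2 genes are not read as results about a list. TDH, the threonine dehydrogenase that degrades threonine to glycine and acetyl-CoA, had signals of 944 and 1270.2 with carnitine and 486 and 463 without (difference of 1.21 in log2 with a standard error of 0.23, unadjusted p = 0.00116 and adjusted p = 0.302 from limma). CTPS1, which uses glutamine nitrogen to make CTP, had 256 and 402 against 107 and 54.8 (difference of 2.07 in log2 with a standard error of 0.44, unadjusted p = 0.00200 and adjusted p = 0.342 from limma). The diets were clearly apart in both genes, with log2 fold changes of at least 0.99 for TDH and 1.59 for CTPS1 with a pool left out. ACAD8, the isobutyryl-CoA dehydrogenase of valine degradation, had 2199 and 2027 against 1739 and 1027 (difference of 0.66 in log2 with a standard error of 0.27). ACADSB, BCKDK, AUH, ECHS1 and HSD17B10 of the same list overlapped between the diets. GCLC, the catalytic subunit of the first enzyme of glutathione synthesis, was lower, with 3916 and 2718 against 7446 and 4476 (difference of -0.82 in log2 with a standard error of 0.30, unadjusted p = 0.0263 and adjusted p = 0.503 from limma).
Of 12 amino acid transporters 0 were higher and 1 lower before adjustment, with a median log2 fold change of -0.093. The lower one was SLC7A7, a light chain of a cationic amino acid exchanger, with 334 and 210.4 against 549 and 403 (difference of -0.83 in log2 with a standard error of 0.32). SLC1A2 and RHBG, which carry glutamate and ammonia into perivenous hepatocytes, had log2 fold changes of 0.80 (standard error 0.36) and 0.92 (standard error 0.43). Both genes were higher in both carnitine pools, but without control pool 1 the value of RHBG was 0.20. SLC3A2, the heavy chain shared by several exchangers, differed by 0.51 in log2 with a standard error of 0.27.
Among 16 genes of the amino acid response, which the transcription factor ATF4 switches on together with ASNS, PHGDH and PSAT1, 0 were higher and 1 was lower before adjustment, and the median was -0.049. That gene was SARS, the seryl-tRNA synthetase, with 1389 and 1475 against 2355 and 1848 (difference of -0.54 in log2 with a standard error of 0.20). CEBPB, CEBPG and VLDLR had log2 fold changes of -0.45, 0.74 and -0.88.
Of 10 genes of hormonal and transcriptional control 1 was higher and 2 were lower before adjustment, with a median log2 fold change of -0.16. PCK1, the phosphoenolpyruvate carboxykinase that takes amino acid carbon into gluconeogenesis and that the study itself listed from these arrays, had signals of 991 and 2489.9 with carnitine and 5177 and 15246 without (difference of -2.50 in log2 with a standard error of 0.57, unadjusted p = 0.00296 and adjusted p = 0.359 from limma). KLF15, a transcription factor known for its control of amino acid degrading enzymes, had 1002 and 729 against 1590.3 and 1589 (difference of -0.90 in log2 with a standard error of 0.22, unadjusted p = 0.00485 and adjusted p = 0.399 from limma). Both carnitine pools were below both control pools in PCK1, KLF15 and PPARGC1A, a coactivator of the fasting response (difference of -0.69 in log2 with a standard error of 0.30). In all, 4 of the 10 genes had this order and 3 the opposite one, against 22.0% and 21.9% of the brighter probe sets. CEBPA, a transcription factor of differentiated hepatocytes, was the gene higher before adjustment, with 414 and 516 against 215 and 301 (difference of 0.86 in log2 with a standard error of 0.28). Among the transporters, amino acid response genes and control genes, 0 passed the adjusted p in limma.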

How the data were processed

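Liver RNA pools of 4 piglets were hybridized as biotin-labelled cRNA to Affymetrix porcine genome arrays, 2 for the carnitine and 2 for the control diet. The deposited values are linear signal intensities. MAS5 5.0, Affymetrix Expression Console 1.1 and GCOS 1.1.2 stand in the submitters' processing notes, without their roles. Background had been subtracted and the arrays scaled to a common 2% trimmed mean of about 500, so that a shift shared by most transcripts would not be seen. Detection calls were not used here, and dim signals vary most. The precision is limited by the number of arrays, which leaves 2 residual degrees of freedom.

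Of 24123 probe sets 124 controls were left out and the other 23999 were tested, with no filter on signal and no pseudocount, on the log2 scale. limma 3.58.1 in R 4.3.3 (lmFit and trended eBayes) was used for standard errors, 95% intervals and p-values, with a variance drawn in part from all probe sets. Benjamini-Hochberg adjustment covered every tested probe set, with a threshold of 0.05, and the fit was tested on simulated data. Gene symbols are those of the array annotation, which can be old: 10069 probe sets have 1 symbol, 198 several and 13732 none. Genome positions and sequences are not given. The genes, their groups and the further lists were chosen with earlier results of these data known. Every gene with a probe set is named. ACAD8, ACADSB, BCKDK, AUH, ECHS1, HSD17B10, ALDH1L1, MTHFD1, GCAT, DLD and KYAT1 were named beyond the rule, after their values were seen. By rule signals are given for all urea cycle enzymes, genes with an unadjusted p under 0.05 or 2-fold or more, and the brightest gene of each group. From each further list they are given for up to 4 genes with the smallest p above the median signal. For some of these only the difference is printed. Signals of further genes were added after their values were seen.

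Alternatives were quantile normalization, median centring, a floor at the 25th percentile, an offset of 64, a filter at the median signal, the mean over the probe sets of a gene, probe sets not ending in _x_at or _s_at, a replicate block, no variance trend, a robust variance prior, a one-factor analysis of variance and leaving out each pool. The study's statistics section names such an analysis of variance without mention of the arrays.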

Additional observations from a re-analysis of the deposited data

How the results depend on the processing

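The number of enzymes past the adjusted p was 0 under all 15 alternatives except the replicate block, under which it was 1. That gene was BHMT (adjusted p = 0.00735), and the block raised the count over the whole array from 1 to 106. The labels give the diets the same replicate numbers but do not say that a number marks a shared litter or day, and the deviations of same-numbered pools correlated at 0.0032 over the 11999 brighter probe sets and at 0.35 over the 37 enzymes. With 2 pools per diet this does not settle whether the numbers pair the pools, and they were treated as sharing only a number. Under the other alternatives the adjusted p of BHMT lay between 0.112 and 1.00, and its log2 fold change, over all alternatives, between 1.13 and 1.78. Higher genes at an unadjusted p numbered 1 without a variance trend and 2 by analysis of variance, lower ones 3 with the mean over probe sets, 3 with median centring and 0 without a variance trend. With a pool left out these counts ranged from 1 to 6 and from 0 to 6, and the count at 2-fold from 1 to 7, which was 1 with the offset of 64. Counts of genes whose diets did not overlap stayed within 1.5 times. Leaving out a pool can only keep or raise these counts, and alternatives that change only the test cannot alter them. For such alternatives the counts are no evidence of stability.
Median log2 fold changes moved beyond the spread between pools for the glutamate group with quantile normalization (0.36), for tyrosine with the mean over probe sets (-0.23) and median centring (-0.14), for SDS with the floor (-0.16) and the offset (-0.24), and for ALDH4A1 with the mean over its probe sets (0.65). With a pool left out the medians ranged from -0.028 to 0.11 for all 37 genes, from -0.066 to 0.30 for the urea cycle, from 0.22 to 0.41 for the glutamate group, from -0.62 to -0.34 for tryptophan, from -0.21 to 0.10 for the branched-chain group and from -0.012 to 0.42 for methionine. The direction of ASS1 turned with median centring (0.016) and quantile normalization (0.080), and that of 13 genes with a pool left out, where log2 fold changes ranged from -0.55 to 0.11 for OTC, -0.35 to 0.30 for ASS1, -0.11 to 0.14 for ASL, -0.14 to 0.65 for GLUL, -0.11 to 0.15 for GOT2, -0.0085 to 0.22 for HPD, -0.096 to 0.33 for BCKDHA, -0.55 to 0.14 for DBT, -0.62 to 0.11 for PCCA, -0.23 to 1.18 for MUT, -0.028 to 0.42 for CTH, -0.11 to 0.26 for PHGDH, -0.40 to 0.066 for PSPH. The causes were not tested. A fit without a pool assumes that the lone pool of its diet varies like the other diet. How far a probe set stood above its background was not analysed here, and the dim signal of SDS limits the precision of its difference.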
